A study of Mus musculus with 5 samples.

Results

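Regions that were called as Smarca4 peaks in female non-silencing control cells, and in no other library, made up most of the female control list. Autosomal peaks of the female Nons library were chosen by 2 criteria, that they overlapped no peak of the other 3 lists by even 1 bp and that they held fewer than 20 input reads. These criteria were met by 16895 regions, which is 80.6% of the 20953 peaks that this list holds on autosomes (95% interval 80.1 to 81.2%, Clopper-Pearson), out of 78911 called regions in all 4 lists. Most of each other list was also its own by the same criteria. They were met by 32509 of 38101 peaks in male Nons and 13321 of 16740 in male Smarcc1 hairpin. In female Smarcc1 hairpin 2208 of 2781 peaks met them, and these list totals cover all chromosomes. Of the 16895 regions, 842 (4.98%, interval 4.66 to 5.32%) held no male Nons read and 16053 held at least 1. The members were therefore selected on peak calls and reads, and their reads are given as a description. Another 3992 autosomal female Nons peaks with fewer than 20 input reads overlapped a peak of another list and serve here as the shared peaks.

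Smarca4 is the ATPase that drives the BAF complex, which slides and ejects nucleosomes, and Smarcc1 is a scaffold subunit around which the complex assembles. In embryonic stem cells the complex is known to act at promoters and enhancers, where it opens chromatin for transcription factors. ChIP-seq counts the DNA fragments that an antibody to Smarca4 pulls down, and a peak is a stretch where a caller finds more of them than in input chromatin that was not immunoprecipitated.

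The groups were female Nons, female Smarcc1 hairpin, male Nons and male Smarcc1 hairpin mouse embryonic stem cells (mESCs), with 1 library each, and 1 input library. All were labelled as strain C57/Bl6, and per the study's methods the lines carried X-linked fluorescent reporters. The ChIP libraries were of cells at day 4 of differentiation, and the labels give no day for the input. Nons is a non-silencing hairpin, so every ChIP library came from cells that carried a hairpin, and no source used here says how many clones or cultures went into a library. With 1 library a group, female against male cannot be told apart from one library against another, no difference between groups has a replicate check, and every interval, at 95%, covers nothing but counting error. The depth of female Nons was 11.6% of that of the input, against 5.99% for female Smarcc1 hairpin, 21.8% for male Nons and 14.2% for male Smarcc1 hairpin. A scaled value is a number of reads brought to the depth of the input, so that 1 read is worth 8.60 in female Nons, 16.7 in female Smarcc1 hairpin, 4.59 in male Nons and 7.03 in male Smarcc1 hairpin.

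The regions are short stretches of genomic DNA, and 7 of them are shown here because they span the kinds of place where the regions lay: the 5′ end of a gene (Crtc1, Fam234b and Hebp1, Zfp629, Grm8), an annotated start site inside a gene (Igf2r, Dll1) and DNA between genes. The Dll1 region also lies at the 5′ end of A930024N18Rik, a long non-coding RNA gene. The plus strand of mm10 is given, for wider regions the central 300 bp, and capitals mark CAGCTG, an E-box bound by basic helix-loop-helix proteins, and CCACCC or its complement GGGTGG, letters found in binding sites of Krüppel-like factors. No marked match overlapped another.
Crtc1, chr8:70438426-70438725: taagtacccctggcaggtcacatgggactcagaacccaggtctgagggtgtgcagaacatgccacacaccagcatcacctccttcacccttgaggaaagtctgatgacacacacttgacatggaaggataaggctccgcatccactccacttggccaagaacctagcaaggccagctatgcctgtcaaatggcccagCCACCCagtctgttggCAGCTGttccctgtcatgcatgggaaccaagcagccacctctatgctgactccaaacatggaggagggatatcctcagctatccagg
Fam234b and Hebp1, chr6:135196801-135197100: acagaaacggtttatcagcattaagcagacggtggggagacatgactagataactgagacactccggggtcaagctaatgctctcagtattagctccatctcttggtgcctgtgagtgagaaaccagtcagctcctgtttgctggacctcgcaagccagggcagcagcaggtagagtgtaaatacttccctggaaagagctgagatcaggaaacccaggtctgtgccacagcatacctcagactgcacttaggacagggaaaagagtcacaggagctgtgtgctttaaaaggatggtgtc
Zfp629, chr7:127615051-127615350: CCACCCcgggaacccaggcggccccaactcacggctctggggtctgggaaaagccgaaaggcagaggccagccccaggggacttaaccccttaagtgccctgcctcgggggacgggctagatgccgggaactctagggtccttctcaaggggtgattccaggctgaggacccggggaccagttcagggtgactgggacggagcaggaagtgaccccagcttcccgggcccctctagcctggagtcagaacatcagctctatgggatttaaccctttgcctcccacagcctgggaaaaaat
Grm8, chr6:28135501-28135800: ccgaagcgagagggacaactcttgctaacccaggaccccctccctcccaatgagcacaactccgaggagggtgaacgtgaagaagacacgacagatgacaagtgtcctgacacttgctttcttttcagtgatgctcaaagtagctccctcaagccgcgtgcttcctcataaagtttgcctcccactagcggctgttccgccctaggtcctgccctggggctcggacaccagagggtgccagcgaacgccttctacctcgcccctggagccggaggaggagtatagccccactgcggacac
Igf2r, chr17:12701551-12701850: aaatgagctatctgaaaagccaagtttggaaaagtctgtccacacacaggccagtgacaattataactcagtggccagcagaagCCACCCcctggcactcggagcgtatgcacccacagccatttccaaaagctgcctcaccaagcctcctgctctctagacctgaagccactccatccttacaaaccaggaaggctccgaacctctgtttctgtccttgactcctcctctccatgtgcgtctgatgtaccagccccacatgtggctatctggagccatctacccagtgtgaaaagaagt
Dll1, chr17:15374176-15374475: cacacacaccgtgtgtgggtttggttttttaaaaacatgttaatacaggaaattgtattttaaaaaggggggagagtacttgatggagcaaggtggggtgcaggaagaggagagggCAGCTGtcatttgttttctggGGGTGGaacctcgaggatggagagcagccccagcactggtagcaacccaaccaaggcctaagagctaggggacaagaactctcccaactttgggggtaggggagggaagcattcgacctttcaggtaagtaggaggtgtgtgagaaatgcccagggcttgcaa
Between genes near Nkx3-2, chr5:41743951-41744250: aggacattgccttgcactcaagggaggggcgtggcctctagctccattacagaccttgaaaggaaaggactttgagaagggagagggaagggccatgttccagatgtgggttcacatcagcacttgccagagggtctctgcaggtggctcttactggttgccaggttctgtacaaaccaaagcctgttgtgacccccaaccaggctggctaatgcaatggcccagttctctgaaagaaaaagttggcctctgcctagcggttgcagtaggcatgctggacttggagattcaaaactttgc

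Each of these regions rested on a handful of reads. Reads of single regions, here and below, are raw, and the input was the deepest library. Within 1000 bp of the 5′ end of Crtc1, which encodes a coactivator of CREB, 16 reads were counted in female Nons and 0 in female Smarcc1 hairpin, against 0 in male Nons, 2 in male Smarcc1 hairpin and 2 in the input, the most female Nons reads of any region without a male Nons read. Male Nons was then set to 3 reads, the upper limit that a count of 0 allows in that library. With that setting the scaled value at Crtc1 was 10.01-fold higher in female Nons. The fold takes the 16 female Nons reads as exact, so it is no lower limit. The region shared by the starts of Fam234b and Hebp1, the second of which encodes a heme-binding protein, held 7 reads in female Nons and 0 in each other library, input included. At Zfp629, a zinc finger gene, there were 6 reads in female Nons, against 0 in male Nons and 4 in the input. At Grm8, a metabotropic glutamate receptor gene, the region held 12 reads in female Nons, against 1 in male Nons, 5 in male Smarcc1 hairpin and 8 in the input. Igf2r, the imprinted receptor that clears IGF2, held 7 reads in female Nons, against 0 in male Nons, at a start site 68.0 kb inside the gene model. Dll1, a Notch ligand, also held 7 reads in female Nons and 0 in male Nons, at a start site within the gene, 2.55 kb from its 5′ end. Between genes, the region nearest among coding start sites to Nkx3-2, a homeobox gene, held 8 reads in female Nons, 3 in female Smarcc1 hairpin, 0 in male Nons and 2 in male Smarcc1 hairpin.

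Over all 16895 regions female Nons averaged 7.85 ± 1.96 reads (SD over regions), against 0.851 ± 1.06 in female Smarcc1 hairpin, 3.89 ± 2.34 in male Nons, 2.62 ± 1.91 in male Smarcc1 hairpin and 3.66 ± 2.69 in the input. Female Nons reads ran from 6, the fewest in any female Nons peak, to 24, with a median of 7, and 51.7% of the regions held 6 or 7. In male Nons the same regions held 0 to 18 reads with a median of 4. Most of the regions were thus not empty in the male library. As 1 male Nons read is worth less, the mean scaled value was 67.6 in female Nons and 17.8 in male Nons, a ratio of summed scaled reads of 3.79 (interval 3.76 to 3.83), and no region had a scaled male Nons value at or above that of female Nons. The input, the deepest library, had a mean of 3.66 on the same axis, below that of male Nons too. In raw reads, 1166 regions (6.90%) held as many male Nons as female Nons reads or more. Because the call itself used these reads, the ratio describes how the regions were chosen.

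A scaled female Nons value at least 4-fold that of male Nons, with male Nons set to at least 3 reads, was reached by 5916 of the 16895 regions (35.0%), and by 446 of the 842 without a male Nons read (53.0%). Over all 76969 autosomal called regions the share was 8.36%, a background that is no benchmark here because the regions were selected on these reads. The single fit that the design allows, edgeR's quasi-likelihood test with sex and hairpin as additive terms over 77716 called regions, called 0 regions (0%) for sex and 0 (0%) for hairpin, with p-values adjusted by the Benjamini-Hochberg method and a threshold of 0.05. At an unadjusted p under 0.05 it counted 377 (0.4851%) and 347 regions (0.4465%). Both shares are below what a threshold of 0.05 passes when nothing differs, so they single out no region. DESeq2 also called 0 for both terms, with 354 and 346 at an unadjusted p under 0.05. Neither fit held a term for a signal in female Nons alone, so a count of 0 says nothing about these regions.

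**Figure D1:**
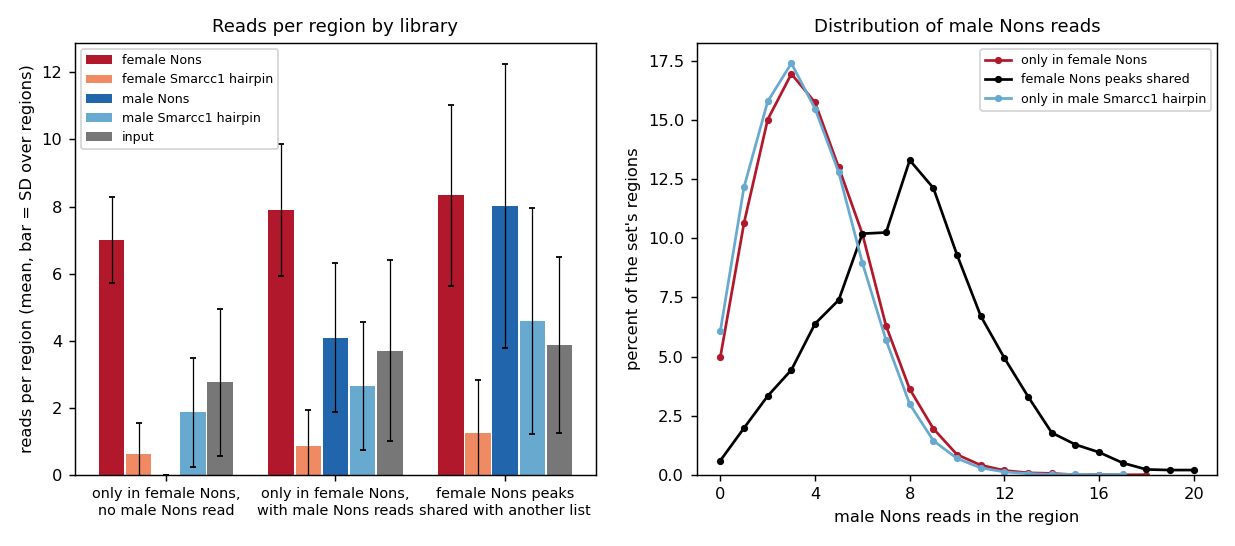
Left, mean reads per region in each library (bars, with the SD over regions) for regions called only in female Nons, without and with male Nons reads, and for shared female Nons peaks. Right, the share of regions (percent) at each number of male Nons reads, where regions called only in female Nons (mean 3.89 reads) lie beside regions called only in male Smarcc1 hairpin (3.65) and below the shared peaks (8.02).

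The male Nons reads in these regions were fewer than in shared peaks and close to those in regions that only the male Smarcc1 hairpin library called. Shared peaks held 8.33 reads in female Nons and 8.02 in male Nons on average, and 0.601% of them (interval 0.386 to 0.893%) had no male Nons read. Regions called only in male Smarcc1 hairpin averaged 3.65 male Nons reads, and 6.09% of those 13321 regions (5.69 to 6.51%) had none. Among regions of exactly 300 bp, the smallest width, the mean of male Nons was 3.03 ± 1.86 reads in the 7558 called only in female Nons and 3.03 ± 1.90 in the 7843 called only in male Smarcc1 hairpin (SD over regions). The share without a male Nons read was 7.61% (7.02 to 8.23%) in the 300 bp regions called only in female Nons and 8.22% (7.63 to 8.85%) in those called only in male Smarcc1 hairpin, so the intervals overlapped. In 300 bp regions called only in female Smarcc1 hairpin that share was 13.2% (11.5 to 15.1%).

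The reverse view gave more empty regions, at the lower depth of female Nons. Of 32509 regions called only in male Nons, 12.7% (12.3 to 13.0%) held no female Nons read, and the mean was 2.47 reads in female Nons and 9.61 in male Nons. In the Smarcc1 hairpin libraries the regions called only in female Nons held few reads, and 8324 of the 16895 had none in female Smarcc1 hairpin, the shallowest library. On the scaled axis female Nons was 4.75-fold above female Smarcc1 hairpin (interval 4.67 to 4.84) and 3.67-fold above male Smarcc1 hairpin (3.63 to 3.71). The 3 libraries that did not call these regions lay close together, with mean scaled values of 14.2 in female Smarcc1 hairpin, 17.8 in male Nons and 18.4 in male Smarcc1 hairpin.

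Whether a region held a male Nons read moved with its width, its reads and its GC content. No male Nons read was found in 7.61% of 300 bp regions, 3.38% of 450 bp regions, 1.65% of 600 bp regions and 0.299% of regions of 750 bp or more. The share was 8.01% among regions with 6 female Nons reads and 1.28% among those with 10 or more. It was 9.60% in regions under 45% GC (7.27 to 12.4%), 9.57% at 45 to 50%, 5.42% at 50 to 55%, 2.16% at 55 to 60% and 2.38% in regions of 60% GC or more (1.44 to 3.68%). The lower share at higher GC also held at a single width. In 300 bp regions it was 14.7% under 45% GC (10.02 to 20.6%) and 4.21% at 60% or more (2.56 to 6.50%), while mean reads were 2.31 and 3.65 in male Nons, 1.69 and 2.35 in male Smarcc1 hairpin and 6.44 and 6.48 in female Nons. Female Nons reads could hardly vary there, since 6 was the fewest a called peak held. The 842 regions without a male Nons read also held fewer reads in libraries that the split did not use: 1.87 against 2.66 in male Smarcc1 hairpin, 0.632 against 0.862 in female Smarcc1 hairpin and 2.76 against 3.70 in the input, for regions without against with a male Nons read. What part width, depth and base composition have in the split was not tested.

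**Figure D2:**
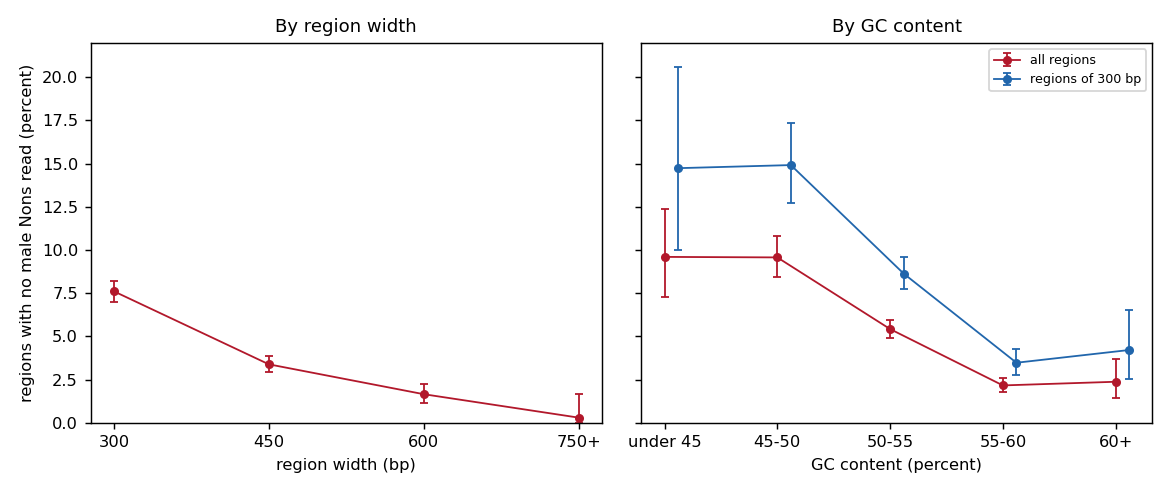
Share (percent) of regions called only in female Nons that held no male Nons read, by region width in bp (left) and by GC content in percent (right), with exact 95% intervals. The share fell with width, to 0.299% at 750 bp or more, and was 14.7% under 45% GC against 4.21% at 60% or more in 300 bp regions.

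Few of the regions were empty in every other ChIP library. In 189 of the 842 the male Smarcc1 hairpin library had no read either, and 124 of all 16895 regions (0.734%) had no read in any of the other 3 ChIP libraries. No input read was found in 1235 regions (7.31%). The regions of highest fold over the input without a male Nons read began with one in an intron of D5Ertd615e, 600 bp wide, with 12 reads in female Nons, against 0 in female Smarcc1 hairpin, 0 in male Nons, 1 in male Smarcc1 hairpin and 0 in the input. Of its bases 89.3% were annotated as repeats. Next came an intron of Rassf4, a Ras-association gene, with 9 reads in female Nons and 0 in male Nons. An intron of Fto, which encodes an RNA demethylase, also held 9 in female Nons and 0 in male Nons, but 8 in male Smarcc1 hairpin. Rassf5, a relative of Rassf4, likewise held 7 reads in female Nons, 3 in female Smarcc1 hairpin, 0 in male Nons and 7 in male Smarcc1 hairpin. A region empty in male Nons could thus hold as many reads in the other male library as in female Nons.

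Among regions with male Nons reads, those of highest fold over the input included introns and coding exons. An intron of Agap1, a GTPase-activating protein gene, held 14 reads in female Nons and 11 in male Nons. The scaled value there was 2.39-fold higher in female Nons, with a counting interval of 1.01 to 5.81. Coding exons among the highest were those of Col6a1, a chain of collagen VI, with 12 reads in female Nons and 6 in male Nons, and Myom2, a sarcomere protein, with 11 in female Nons and 3 in male Nons.

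The regions lay mainly in introns and between genes, as did the regions called only in each other library. By GENCODE annotation, with precedence from promoters to introns, 2850 regions (16.9%, interval 16.3 to 17.4%) were within 1000 bp of a start site, 2253 (13.3%) touched a coding exon, 426 (2.52%) a UTR and 326 (1.93%) another exon. Introns held 6531 (38.7%, 37.9 to 39.4%) and the space between genes 4509 (26.7%, 26.0 to 27.4%). Shared female Nons peaks were more often genic, with 21.5% at promoters, 19.9% in coding exons, 33.3% in introns and 20.49% between genes. The odds of lying at a promoter were 0.739 times those of shared peaks (exact conditional interval 0.678 to 0.806), of touching a coding exon 0.618 times (0.565 to 0.677), of lying in an intron 1.26 times (1.17 to 1.36) and of lying between genes 1.41 times (1.30 to 1.54). Against the regions called only in male Nons the differences were smaller, with an odds ratio of 0.776 at promoters (0.739 to 0.815) and 1.12 between genes (1.08 to 1.17). Regions called only in female Smarcc1 hairpin lay 16.2% at promoters, 38.9% in introns and 30.9% between genes. In those called only in male Smarcc1 hairpin the shares were 19.7%, 36.2% and 27.5%. Shared peaks were also wider, with a mean of 437 bp, against 409 bp for the regions called only in female Nons.

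The 842 regions without a male Nons read lay farther from genes than the 16053 with one. Promoters held 10.8% of regions without and 17.2% of regions with a male Nons read, an odds ratio of 0.584 (0.463 to 0.730). Coding exons held 6.65% without and 13.7% with a male Nons read, an odds ratio of 0.449 (0.335 to 0.592). Between genes lay 35.6% without and 26.2% with a male Nons read, an odds ratio of 1.56 (1.34 to 1.80). Within 300 bp regions these odds ratios were 0.640 (0.483 to 0.837), 0.533 (0.368 to 0.751) and 1.45 (1.21 to 1.74) in the same order. The median distance from a region's centre to the nearest start site was 10318 bp without and 6965 bp with a male Nons read, beside 4890 bp for shared peaks.

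**Figure D3:**
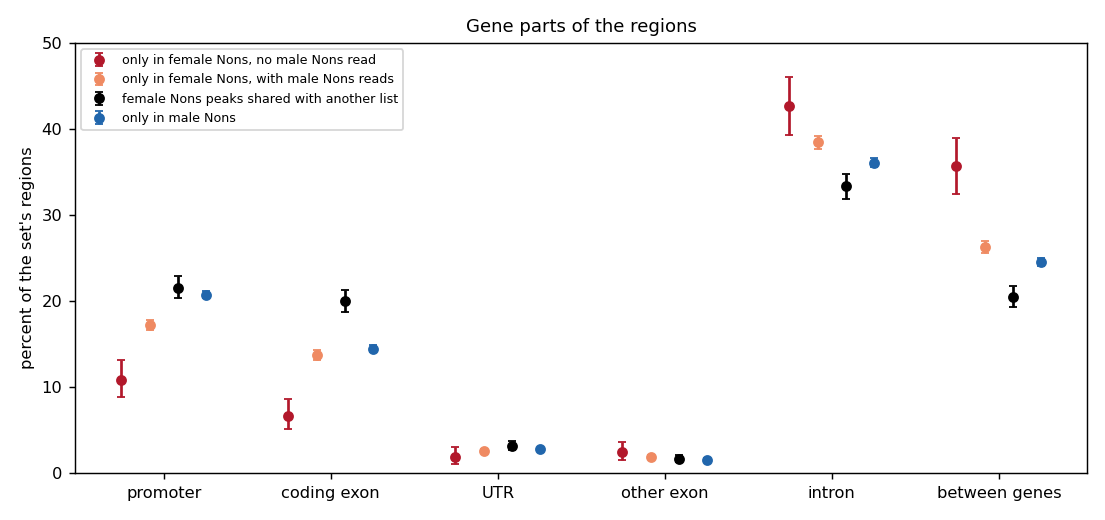
Share (percent) of each set's regions in each gene part, with exact 95% intervals as bars, for regions called only in female Nons without and with male Nons reads, shared female Nons peaks and regions called only in male Nons. Regions without a male Nons read were lowest at promoters (10.8%) and coding exons (6.65%) and highest between genes (35.6%).

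Most promoter regions near coding genes were not at the outer 5′ end of the gene. Of the 2850 promoter regions 1325 (46.5%, 44.6 to 48.3%) were within 1000 bp of the 5′ end of a gene model, and 1525 only near the start of a shorter transcript inside one. Of the 2170 near a start site of a protein-coding gene, 612 (28.2%, 26.3 to 30.1%) were at a 5′ end. At 5′ ends lay 6.18% of regions without and 7.93% of regions with a male Nons read, an odds ratio of 0.764 whose interval (0.562 to 1.02) included 1. At internal start sites alone lay 4.63% without and 9.26% with a male Nons read, an odds ratio of 0.476 (0.335 to 0.660). The 91 promoter regions without a male Nons read were split between 61 near coding genes, 11 near long non-coding genes and 19 near pseudogenes or other genes. Genes with such a region at the 5′ end included Klhl3, an adaptor of a ubiquitin ligase, and Eci3, a fatty acid oxidation enzyme, each with 6 reads in female Nons and 0 in male Nons. Gabrr2, a GABA receptor subunit, and Catsperg1, a subunit of the sperm calcium channel, had theirs at a start site inside the gene, again with 6 reads in female Nons and 0 in male Nons.

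Base composition set the regions apart from the genome and, by less, from shared peaks. Median GC content was 53.7% (quartiles 51.0 and 56.0%), against 55.6% in shared peaks, 54.4% in regions called only in male Nons and 41.9% over the autosomes. It did not set them apart from regions called only in male Smarcc1 hairpin, also at 53.7%. Regions called only in female Smarcc1 hairpin were at 52.4%. Within the regions called only in female Nons, median GC content was 51.3% without and 53.8% with a male Nons read. Annotated repeats covered 15.3% of bases on average, against 11.5% in shared peaks and 33.5% of the autosomes, and 20.1% without against 15.0% with a male Nons read. CpG-rich regions, with at least 50% GC and a ratio of observed to expected CpG of at least 0.6, were 1.92% of the regions, 3.06% of shared peaks and 4.61% of regions called only in male Nons.

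Of the 12 short motifs searched, some were more frequent in the regions than in genome windows, some less and some about as frequent. CAGCTG was present in 25.7% (25.1 to 26.4%) of central 300 bp windows of the regions, 27.6% (26.2 to 29.0%) of shared peaks, 16.2% of windows at autosomal start sites (250 bp before to 50 bp after) and 10.9% of genome windows of that length. CCACCC on either strand was present in 35.2% (34.5 to 35.9%) of the regions, 35.8% (34.3 to 37.3%) of shared peaks, 28.7% of start site windows and 15.8% of genome windows. GGGCGG, the core of sites for Sp1-like factors, was in 9.27% of the regions, 11.2% of shared peaks and 31.0% of start site windows. AGATAA, letters bound by zinc finger factors of the Gata family, was in 8.23% of the regions against 19.1% of genome windows. GGAATG, the letters bound by TEAD factors, was in 15.87% of the regions and 15.89% of genome windows, and TGANTCA, the letters bound by AP-1, in 7.44% of the regions and 8.88% of genome windows. Genome windows have a lower GC content than the regions, and no window set of equal GC content was compared.

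The regions were spread over the genome and often lay near a male peak without overlapping it. Their share among each chromosome's female Nons peaks ran from 77.2% on chromosome 15 to 85.2% on chromosome 6. The median gap between neighbouring regions was 32.7 kb. A male Nons peak lay within 10 kb of 61.3% of the regions (60.5 to 62.0%), at a median gap of 5.85 kb, and 669 regions directly abutted a peak of another list. No genome windows or regions of other lists were compared for this share. Without a male Nons read 43.7% (40.3 to 47.1%) had a male Nons peak within 10 kb, against 62.2% (61.4 to 62.9%) with one. Of the 20807 autosomal protein-coding genes, 5793 (27.8%) held a region inside the gene or at a start site and 3313 held exactly 1.

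The genes with the most regions were long. Gm20388 (4.43 Mb, 254 regions) and Fgfr2 (2.96 Mb, 53 regions) came first, as models whose annotated spans hold other genes too, Gse1 among them in the case of Gm20388. After them came Gse1 with 36 regions over 353 kb, Camta1, a transcription activator of neurons, with 31, and Nav2, which guides neurite growth, and Rbfox3, a neuronal splicing factor, with 23 each. Agap1 held 21, and Cdh4, a cadherin, Ephb2, an ephrin receptor, Mcf2l, a guanine nucleotide exchange factor, and Prdm16, a transcriptional regulator, held 20 each. Per Mb of gene, those from Gse1 on ran from 32.8 regions in Nav2 and Camta1 to 136 in Mcf2l, against 11.7 over all protein-coding genes. Fgfr2 held 17.9 per Mb and Gm20388 57.3. The genes were picked for their number of regions, so a density above that of all genes is partly built in. Out of each gene's female Nons peaks, the regions were 36 of 50 in Gse1, 31 of 38 in Camta1 and 23 of 24 in Nav2. They were 23 of 33 in Rbfox3, 21 of 23 in Agap1, 20 of 21 in Ephb2 and 20 of 27 in Prdm16. Cdh4 and Mcf2l each had 20 of 25. Over all protein-coding genes the share was 78.7%. Regions without a male Nons read were 0 of 36 in Gse1, 0 of 20 in Ephb2 and in Prdm16, 1 of 23 in Nav2, 1 of 20 in Mcf2l, 2 of 31 in Camta1, 2 of 23 in Rbfox3, 2 of 21 in Agap1 and 2 of 20 in Cdh4, beside 4.07% of all regions assigned to protein-coding genes.

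Gene groups differed in how many members held a region. In the extracellular matrix list of collagens, laminins and Adamts proteases, 51 of 77 genes (66.2%) held a region, in receptor tyrosine kinases 21 of 34 and in glutamate and GABA receptors 24 of 43, beside 27.8% of all protein-coding genes. The median gene span was 114 kb in the extracellular matrix list and 138 kb in the list of glutamate and GABA receptors, against 17.6 kb over all protein-coding genes. Lists of shorter genes could also hold many, with 8 of 10 in the trophoblast list at a median span of 16.2 kb and 13 of 25 in the Notch pathway at 10.4 kb. Sodium channels, at a median span of 103 kb, held a region in 4 of 14 (28.6%). Olfactory and vomeronasal receptors, short genes that are silent outside sensory tissue, held a region in 14 of 1428. Ribosomal protein genes held one in 3 of 72 and histone genes in 3 of 81. Per Mb of gene the order changed, with 16.0 regions in the extracellular matrix list, 7.18 in glutamate and GABA receptors, 19.9 in Wnt pathway genes and 1.11 in olfactory receptors, against 11.7 over all. Of all female Nons peaks assigned to protein-coding genes, 78.7% were regions of the set. This share was 85.1% for glutamate and GABA receptors, 81.8% for the extracellular matrix list, 66.7% for the Wnt pathway and 68.3% for the Notch pathway, while in Hox genes 5 of 16 peaks belonged to the set.

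At 5′ ends, 631 of the 20807 protein-coding genes (3.03%) held a region, and receptors of neurotransmitters were among them. In the list of glutamate and GABA receptors 7 of 43 genes held one, namely Gabra4, Gabrb1, Gabrd, Grik4, Grm2, Grm3 and Grm8. Gabra4 and Gabrb1 share their region, which lies within 1000 bp of both starts and held 6 reads in female Nons and 2 in male Nons. Grm2 held 12 reads in female Nons, against 6 in male Nons and 0 in the input, and Gabrd 11 in female Nons, against 8 in male Nons and 3 in the input. In every one of these 7 genes the male Nons library had reads. In the Notch pathway 3 of 25 genes held a region at the 5′ end: Hes2 and Hes3, transcriptional repressors of the Hes family, and Lfng, which modifies Notch with sugar. Hes2 held 7 reads in female Nons and 3 in male Nons, Hes3 14 in female Nons and 13 in male Nons, and Lfng 7 in female Nons and 6 in male Nons.

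**Figure D4:**
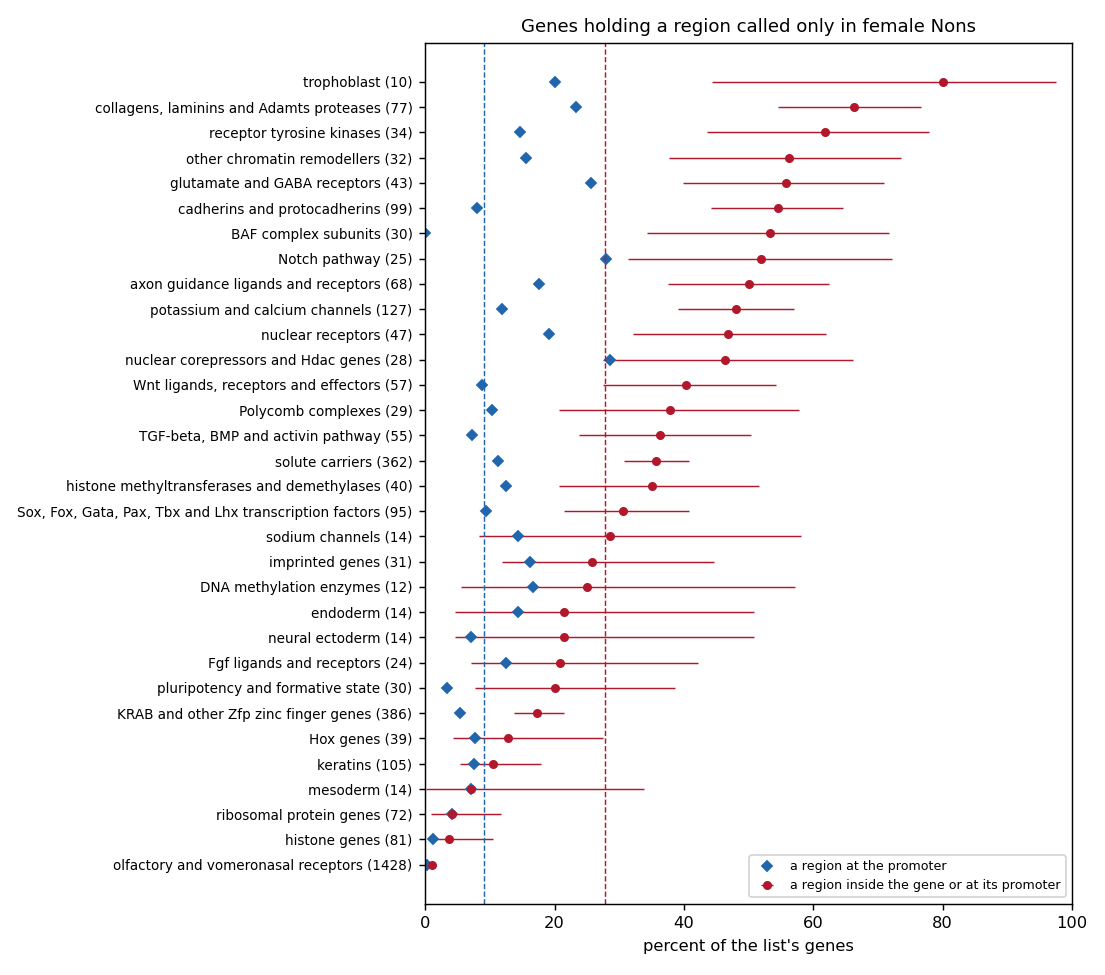
Percent of each list's genes with a region called only in female Nons inside the gene or at any start site (circles, with exact 95% intervals) and at any start site alone (diamonds), with the number of genes in brackets. Dashed lines give the shares over all 20807 protein-coding genes, 27.8% and 9.05%; the trophoblast list (8 of 10 genes) lies farthest right and olfactory and vomeronasal receptors (14 of 1428) farthest left.

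In the list of Sox, Fox, Gata, Pax, Tbx and Lhx factors, regulators of development, 4 of 95 genes (4.21%) held a region at the 5′ end, beside 3.03% of all protein-coding genes. Foxf2, a factor of gut mesenchyme, held 9 reads in female Nons, against 1 in male Nons, 4 in male Smarcc1 hairpin and 8 in the input. Pax3, a neural crest factor, held 8 in female Nons and 9 in male Nons, and Gata3, a trophoblast factor, held 8 in female Nons and 4 in male Nons. Pdgfra, a receptor of primitive endoderm, held 8 reads in female Nons, against 1 in male Nons and 7 in the input. It was 1 of 14 genes in the endoderm list with a region at the 5′ end, as Gata3 was 1 of 10 in the trophoblast list. Among imprinted genes 2 of 31 (6.45%) held a region at the 5′ end. Inside the gene or at a start site 8 of 31 (25.8%) held one, beside 27.8% of all protein-coding genes. H19, a maternally expressed non-coding RNA, held 2 abutting regions, with 6 reads each in female Nons and 5 and 3 in male Nons. Phlda2, a maternally expressed growth regulator, held 11 in female Nons and 2 in male Nons, beside 7 in male Smarcc1 hairpin and 8 in the input. None of the 30 BAF subunit genes held a region at a start site, beside 9.05% of all protein-coding genes, and 16 (53.3%) held one inside the gene, beside 27.8% of all protein-coding genes with a region inside the gene or at a start site. The median span of the BAF subunit genes was 32.4 kb, against 17.6 kb over all protein-coding genes. Of their female Nons peaks 79.5% were regions of the set, close to the 78.7% over all protein-coding genes. The lists of Polycomb genes, other chromatin remodellers, DNA methylation enzymes and pluripotency genes held 0 at 5′ ends, of 29, 32, 12 and 30 genes. With 3.03% of all coding genes holding one, counts of 0 or 1 are near the background for lists of this size.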

How the data were processed

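Smarca4 ChIP-seq libraries of 4 groups and 1 input library were analysed from 4 peak lists, 1 per ChIP library. Groups were taken from the sample titles; the labels name the hairpin target under the tag for antibody. Per the study's methods and reporting form, single-end reads were trimmed, aligned to mm10 (bowtie2, or tophat by the reporting form), deduplicated and called against the input within Seqmonk. Tools named without a version in the submitters' processing notes are MACS2, Bowtie2 and bcl2fastq. The values the authors deposited for the ChIP libraries are a signal per region, and the deposited input values are counts of reads. The lists give no score from the caller, and every value column belonged to a sample (0 others).

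In every ChIP library 100% of its 78911 values were whole multiples of the value of 1 read (tolerance 0.01 reads), so reads were recovered by division. Fold over input is the scaled value over input reads plus 1. Gene parts came from GENCODE vM21 on GRCm38, the assembly of mm10, and GC content, repeats and motifs from the RefSeq copy of that sequence. The motifs searched were 12, on both strands. Recovered reads were tested with edgeR 4.0.16 and DESeq2 1.42.0 in R 4.3.3, over regions with fewer than 50 input reads. Library sizes were proportional to depth in edgeR, while DESeq2 used its own size factors. The design left 1 residual degree of freedom, and the edgeR step was tested on simulated data. Python 3.11.15 and scipy 1.17.1 gave exact Clopper-Pearson, Poisson and conditional odds ratio intervals at 95%. Regions near each other are not independent.

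The members and the 32 gene lists were chosen with earlier results of these data known. Named genes were the 10 regions of highest fold over input without and with a male Nons read, among all regions, at coding promoters and in coding exons, the 10 genes with most regions, and list genes with a promoter region; examples with a known function were picked from these. The split by 5′ end or internal start site was added after the data were seen. Results that need withheld items are not reported here.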

Additional observations from a re-analysis of the deposited data

How the results depend on the processing

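No paired analysis was possible because each group held 1 library. Other limits on input reads (under 10, under 50, none) gave 16290, 16904 and 16906 regions and kept the shares, the median GC content and the ratio of scaled reads within the intervals of the main analysis. Keeping only the 50% of female Nons peaks of highest fold over input left 8752 regions, of which 6.01% had no male Nons read, 16.1% lay at promoters, 27.7% between genes and 60.4% within 10 kb of a male Nons peak, at a male to female ratio of scaled reads of 0.255, against 0.264 in the main analysis. Removing also regions within 500 bp of another list's peak gave 5.49% without a male Nons read, 15.8% at promoters, 28.2% between genes, a median GC content of 53.3%, a ratio of 0.259 and 56.0% within 10 kb. Removing only regions covered by 50% or more gave a ratio of 0.269 and 62.4% within 10 kb. The median ratio with 1 read added was 0.296. Definitions moved shares most: 15.6% held 1 male Nons read or none; 7.61% of 300 bp regions held none; promoters took 11.6% at 500 bp, 25.3% at 2000 bp, 12.8% with coding genes only and 7.84% with 5′ ends only; with coding genes only introns took 37.1% and the space between genes 32.9%; and a male Nons peak lay within 1 kb of 16.3% and within 100 kb of 93.2%. Leaving out gene models over 2.5 Mb gave 38.1% in introns and 27.2% between genes. The fit called 0 regions under TMM, under DESeq2 and with at least 10 reads. The choices on 300 bp, 5′ ends and long gene models were made after seeing the data. At 6 to 24 female Nons reads a region, the counting interval of a single region's ratio is wide, as at Agap1 (1.01 to 5.81).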
